A study of Homo sapiens with 9 samples.

Results

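Nucleotide excision repair was followed at the level of RNA through 32 genes, which encode the proteins that find, verify and cut out bulky DNA damage. The genes were chosen by symbol, each symbol was traced to 1 Ensembl identifier, and all 32 were present among the 24542 rows of the count table. The cells were A2780, a human ovarian carcinoma line labelled wild type, treated for 96 h with 5.5 µM Pt-ttpy, with 0.6 µM cisplatin or with 0.5% DMSO. There were 3 RNA-seq libraries per group, numbered as biological replicates, and 9 in all. Cisplatin is written "Cispt" in the labels, which set each drug at its IC80, so the groups were matched by effect on the cells and not by molar dose. Pt-ttpy contains platinum like cisplatin, and the title of the series presents it as a ligand of G-quadruplexes, folded structures of guanine-rich DNA. All libraries come from 1 cell line, and the same 3 DMSO libraries serve as controls for both drugs. A DMSO percentage was recorded for the control group alone, so whether the drug cultures also held DMSO is not known here.

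In nucleotide excision repair, damage is found either anywhere in the genome by XPC and the UV-DDB ubiquitin ligase, or at RNA polymerase stalled on a transcribed strand by the Cockayne syndrome proteins and their partners. Both branches recruit the helicase complex TFIIH, which opens the DNA, then XPA and the single-strand binding protein RPA, and the nucleases that cut on either side of the damage. The gap is filled by replicative polymerases and sealed by a ligase. Crosslinks made by cisplatin within a DNA strand are a textbook substrate of this pathway, and DDB2 and XPC are textbook targets of the transcription factor p53.

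Library totals were 31.3 to 40.8 M counts, so that 1 CPM, a unit scaled with TMM factors, stood for 31.1 to 42.2 counts. A library held between 311 counts (ERCC6) and 19325 counts (DDB1) of any of the 32 genes. DMSO 2 and cisplatin 2 stood apart from the other 7 libraries on the second principal component (15.9% of the variance), and only in these did transcripts rich in GC have higher counts (Spearman rho across genes 0.51 and 0.41, and −0.34 to −0.16 in the other 7). Values without these 2 libraries are therefore given beside the main ones. Of 15 markers of ovarian carcinoma and epithelium, SOX17 and KRT7 were at 0 in all libraries, and PAX8 was at 0 in 6 of them. CLDN4 was the highest of the list in every library. It had 2.12, 3.30 and 2.67 CPM with Pt-ttpy, 9.60, 6.58 and 4.71 CPM with cisplatin, and 1.72, 2.55 and 1.97 CPM with DMSO. KRT8 and EPCAM reached 1.78 and 1.14 CPM, both in cisplatin 2. The list summed to 3.94 to 5.13 CPM with Pt-ttpy, 6.91 to 13.3 CPM with cisplatin and 2.50 to 3.69 CPM with DMSO. Of 9 fibroblast markers 8 averaged over 1 CPM in each group, led by COL3A1, with FAP at 0. Their sum was 1794 to 1875 CPM with Pt-ttpy, 1717 to 1983 CPM with cisplatin and 1079 to 1165 CPM with DMSO. Within the fibroblast list COL1A1 overlapped between DMSO and each drug, COL1A2 between DMSO and Pt-ttpy, and THY1 between DMSO and cisplatin. THY1 was lower with Pt-ttpy (91.9, 90.7 and 91.0 CPM) than with DMSO (97.6, 130 and 99.7 CPM). The sums of both lists moved with both treatments, and their part in the results below was not tested. The 7 leukocyte markers summed to between 3.52 and 5.80 CPM, mostly CD68, and the 5 endothelial markers to at most 0.515 CPM. The labels call the replicates biological but do not say whether they were separate cultures. If they were not, the p-values cover no more than the spread among these libraries.

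The promoter sequences of DDB2, XPC and ELOF1 are shown because DDB2 and XPC had the largest rises with cisplatin and ELOF1 the largest fall with either drug. They are from RefSeq (GRCh38.p14), written 5′ to 3′ on the strand of the gene and starting 250 bases before the transcription start. DDB2 has 2 annotated starts, and the one shown was taken for its match to the p53 consensus. This stretch (chr11:47214724-47214999, plus strand) ends 25 bases after its first base, and capitals mark a pair of p53 half-sites that match the consensus at all positions. The stretches of XPC (chr3:14178602-14178851, minus strand) and ELOF1 (chr19:11559231-11559480, minus strand) end before the first base, and in ELOF1 capitals mark a G-quadruplex motif.
DDB2: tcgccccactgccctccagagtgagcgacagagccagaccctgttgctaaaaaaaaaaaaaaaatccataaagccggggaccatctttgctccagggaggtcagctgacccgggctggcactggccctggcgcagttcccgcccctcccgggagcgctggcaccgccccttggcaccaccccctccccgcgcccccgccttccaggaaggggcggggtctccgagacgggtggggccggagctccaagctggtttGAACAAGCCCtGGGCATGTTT
XPC: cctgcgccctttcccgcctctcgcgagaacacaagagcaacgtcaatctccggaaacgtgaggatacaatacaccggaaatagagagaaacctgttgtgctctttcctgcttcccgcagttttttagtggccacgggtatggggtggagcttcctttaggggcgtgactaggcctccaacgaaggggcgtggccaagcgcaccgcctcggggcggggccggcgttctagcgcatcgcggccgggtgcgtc
ELOF1: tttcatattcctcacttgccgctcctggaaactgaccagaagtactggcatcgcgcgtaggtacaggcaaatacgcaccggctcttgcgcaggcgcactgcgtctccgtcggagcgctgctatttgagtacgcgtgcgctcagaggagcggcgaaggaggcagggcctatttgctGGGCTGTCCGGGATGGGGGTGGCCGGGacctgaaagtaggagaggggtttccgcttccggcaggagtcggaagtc

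Promoter windows of 300 bases (250 before and 50 from the start) were at hand for 29 of the 32 genes, in 45 windows, since some genes have several starts. The p53 consensus (2 half-sites of 10 bases, 0 to 13 bases apart) was found without a mismatch in 1 of the 45 windows, that of DDB2, where 1 base lies between the half-sites. The same search found it in 10 of all 35116 windows of the reference (0.0285%). The closest match in the XPC window had 3 mismatches of 20, and 39.1% of all windows held a match at least as close. The G-quadruplex motif (4 runs of GGG or longer, 1 to 7 bases apart, on either strand) was found in windows of 7 of the 29 genes (24.1%), against 27.9% of all genes in the reference. The 7 genes were CUL4A, CUL4B, ELOF1, GTF2H1, RAD23B, RBX1 and RPA1, and both windows of ELOF1 held the motif. These matches describe the letters of the windows only.

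With Pt-ttpy, DDB2 and GTF2H3 were higher and ELOF1 and ERCC3 were lower than with DMSO, while the other 28 genes were not called. Changes were called at an adjusted p under 0.05 in edgeR's quasi-likelihood test over the 15558 genes that passed the filter on low counts, and all 32 genes passed it. The 4 called genes were 12.5% of the 32, and the share over all genes tested was 12.0% (5.59% higher and 6.45% lower). An unadjusted p under 0.05 was found for 6 of the 32 genes, beside 29.8% of all genes. The median log2 change of the 32 was −0.03, beside 0.03 over all genes tested. The values of the 3 Pt-ttpy and the 3 DMSO libraries did not overlap in 11 genes, 5 higher and 6 lower (34.4% of the 32, beside 40.9% of all genes, 20.3% higher and 20.6% lower).

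With cisplatin, DDB2, XPC, GTF2H3 and ERCC1 were higher and ELOF1, ERCC3 and RPA2 were lower than with DMSO, and 25 genes were not called. The 7 called genes were 21.9% of the 32, beside 20.5% of all genes tested (10.7% higher and 9.78% lower). An unadjusted p under 0.05 was found for 11 of the 32, beside 35.1% of all genes. The median log2 change was −0.13, beside 0.01 over all genes. Groups did not overlap in 3 higher and 8 lower genes (34.4%, beside 38.0% of all genes, 18.6% higher and 19.4% lower). Between Pt-ttpy and cisplatin 1 gene, DDB2, was called, lower with Pt-ttpy. Over all genes 0.514% were called in that contrast (0.0578% higher and 0.456% lower). The called share of the 32 genes was near that of all genes in both comparisons with DMSO. The heat map of the 32 genes shows DDB2 and GTF2H3 above, and ELOF1 and ERCC3 below, the DMSO mean in all 6 treated libraries. XPC was highest in the cisplatin libraries. Lying on the same side of the DMSO mean throughout was not particular to genes called with both drugs. Of genes called with neither drug, UVSSA, TCEA1 and MNAT1 also lay above it. RAD23B, DDB1, CUL4A, USP7, GTF2H1, GTF2H4, CDK7 and RPA1 lay below it. So did RPA2, called with cisplatin alone, while XPC and ERCC1, also called with cisplatin alone, lay above it.

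**Figure D1:**
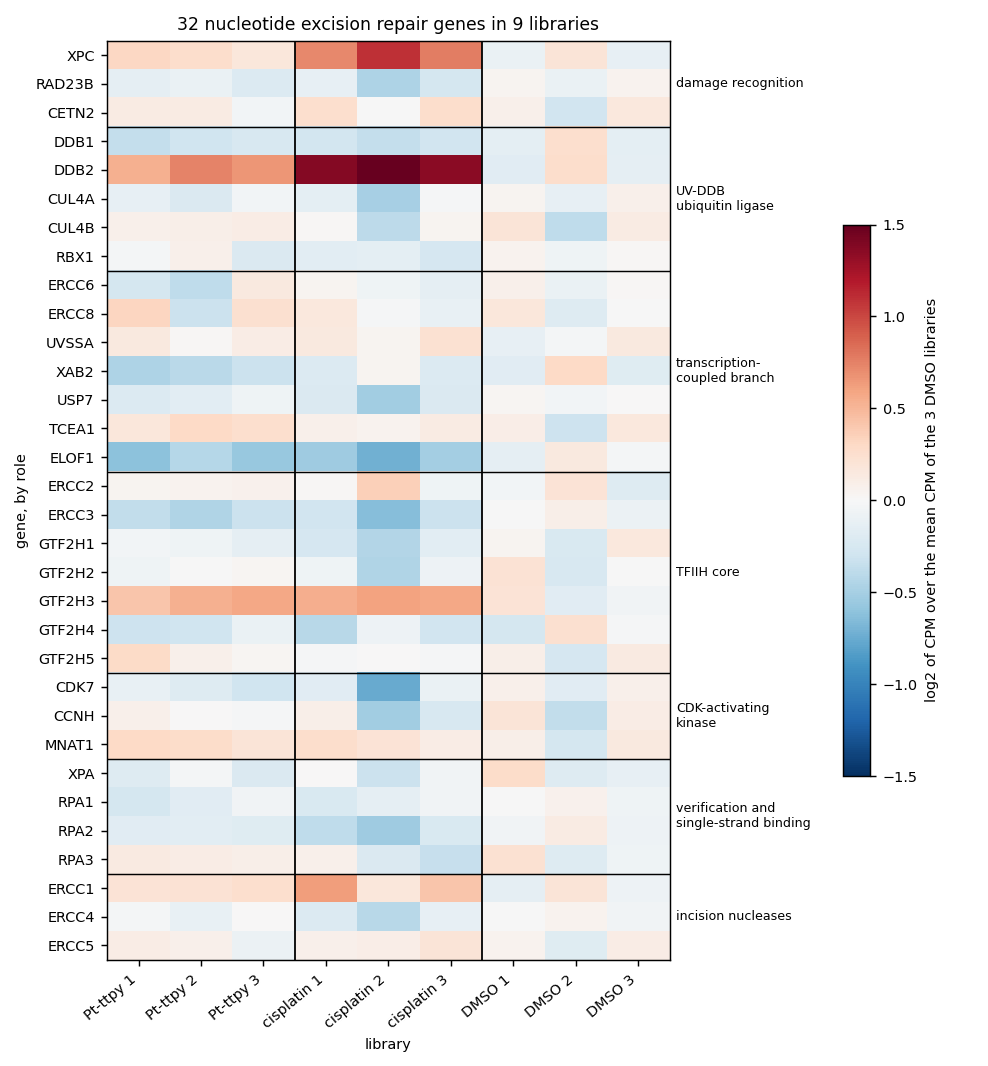
Level of each of the 32 genes (rows, by role) in each of the 9 libraries (columns), as log2 of CPM over the mean CPM of the 3 DMSO libraries; red is higher and blue lower. DDB2 is red in all 6 treated libraries and deepest in the 3 cisplatin libraries, and columns cisplatin 2 and DMSO 2 differ from the other replicates of their groups in many rows.

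Damage recognition across the genome rests on XPC, which senses the distorted helix, on RAD23B, which stabilises XPC, and on the centrin CETN2. XPC (ENSG00000154767; chromosome 3, 14145147 to 14178783, minus strand, GRCh38) had 68.2, 66.3 and 61.8 CPM in the Pt-ttpy libraries, 90.3, 118 and 93.7 CPM in the cisplatin libraries, and 51.2, 63.2 and 50.7 CPM in the DMSO libraries. All cisplatin values lay above all others, while Pt-ttpy 3 lay below DMSO 2. XPC rose with cisplatin by 0.87 on the log2 scale (SE 0.13, 95% interval 0.59 to 1.16, adjusted p = 0.0018). With Pt-ttpy its log2 change of 0.25 (interval −0.03 to 0.53, adjusted p = 0.222) was not called. Without DMSO 2 and cisplatin 2 the log2 changes of XPC were 0.36 with Pt-ttpy (adjusted p = 0.000267) and 0.86 with cisplatin (6.5e-08), and both were called. Of the exonic bases of XPC 30.4% are shared with genes of the opposite strand. AC093495.1, an antisense gene not analysed here, covers 23.8%, AC090004.1, listed at 0 in all 9 libraries, covers 8.61%, and LSM3 covers 6.63%. LSM3 fell (log2 −0.47 with Pt-ttpy, adjusted p = 0.036, and −0.61 with cisplatin, 0.00881). The sources used here do not say whether counting was stranded, so counts on shared bases could belong to either gene. RAD23B averaged 307 ± 11.4 CPM with Pt-ttpy, 280 ± 32.3 CPM with cisplatin and 339 ± 19.6 CPM with DMSO (SD, n = 3 each). Its log2 changes of −0.15 with Pt-ttpy (adjusted p = 0.365) and −0.28 with cisplatin (0.0727) were not called. CETN2 averaged 21.2 ± 1.41 CPM with Pt-ttpy, 22.8 ± 2.31 CPM with cisplatin and 20.1 ± 3.15 CPM with DMSO, with neither change called.

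In the UV-DDB ubiquitin ligase DDB2 binds the lesion, DDB1 links it to the scaffold CUL4A or CUL4B, and RBX1 brings in the enzyme that carries ubiquitin. DDB2 (ENSG00000134574; chromosome 11, 47214465 to 47239240, plus strand) had 59.4, 68.5 and 65.2 CPM in the Pt-ttpy libraries, 106, 125 and 105 CPM in the cisplatin libraries, and 36.4, 49.3 and 37.5 CPM in the DMSO libraries. The 3 groups did not overlap, and within the cisplatin and DMSO groups replicate 2 was the highest. DDB2 rose with Pt-ttpy by 0.65 on the log2 scale (SE 0.13, 95% interval 0.36 to 0.94, adjusted p = 0.0154), which is 1.57-fold. It rose with cisplatin by 1.45 (SE 0.14, interval 1.15 to 1.75, adjusted p = 8.04e-05), which is 2.73-fold. In the fit to the other 7 libraries the log2 changes were 0.81 with Pt-ttpy and 1.52 with cisplatin. The Pt-ttpy call was lost when any 1 of the 3 Pt-ttpy libraries was left out (adjusted p = 0.0505 without Pt-ttpy 1, 0.0768 without Pt-ttpy 2 and 0.062 without Pt-ttpy 3), with log2 changes of 0.70, 0.61 and 0.64. The cisplatin call held in all 23 alternative fits, at log2 changes of 1.36 to 1.61. No other gene annotated in GENCODE 29 shares exonic bases with DDB2.

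The other 4 genes of the ligase were not called with either drug. DDB1 had 362, 377 and 394 CPM with Pt-ttpy, 384, 363 and 382 CPM with cisplatin, and 421, 553 and 419 CPM with DMSO. All treated values were below all DMSO values, and DMSO 2 was well above the other 2 controls. The log2 change of −0.30 with each drug was not called (adjusted p = 0.0988 with Pt-ttpy and 0.0743 with cisplatin). With 7 libraries it was −0.15 with Pt-ttpy, which was called (adjusted p = 0.0166), and −0.13 with cisplatin, which was not (0.0623). CUL4A, CUL4B and RBX1 had log2 changes between −0.12 and 0.09 with Pt-ttpy and between −0.21 and −0.10 with cisplatin, none of them called. Counts of DDB2 per 100 counts of DDB1 in the same library were 16.4, 18.2 and 16.6 with Pt-ttpy, 27.7, 34.5 and 27.5 with cisplatin, and 8.65, 8.91 and 8.95 with DMSO. The ratio was nearly equal in the 3 DMSO libraries, DMSO 2 included, and the groups did not overlap. Counts of XPC per 100 counts of RAD23B were 22.1, 20.9 and 21.0 with Pt-ttpy, 29.1, 47.8 and 33.1 with cisplatin, and 14.7, 20.0 and 14.4 with DMSO. Here too the 3 groups did not overlap, but DMSO 2 came close to the Pt-ttpy libraries. These ratios follow the 2 genes of a pair within a library and are not ratios of molecules, since gene length was not taken into account. In both pairs, and for ERCC1 and ERCC4 below, the first gene was called higher with cisplatin and its partner had a negative log2 change. Such a choice of pairs raises the ratio with cisplatin, and overlap in other pairs of genes was not counted.

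**Figure D2:**
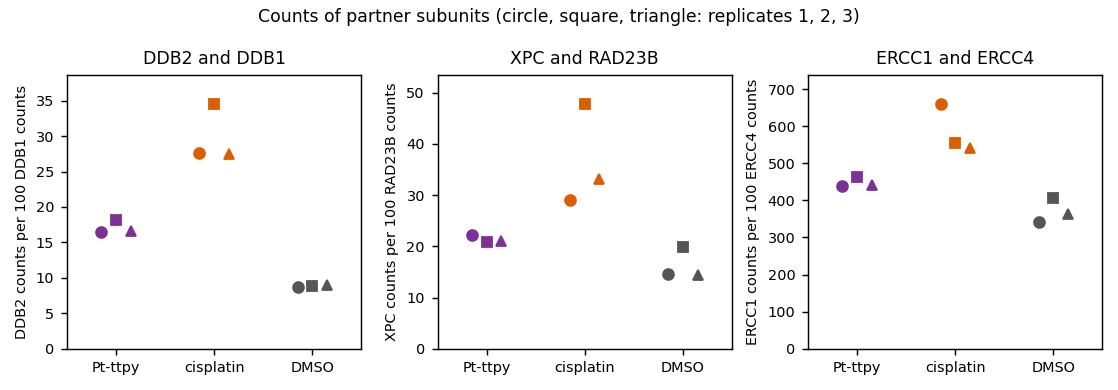
Counts of one subunit per 100 counts of its partner in each library (y axis, from 0), for DDB2 and DDB1, XPC and RAD23B, and ERCC1 and ERCC4; symbols mark replicates. The DDB2 ratio lies between 16.4 and 18.2 with Pt-ttpy, between 27.5 and 34.5 with cisplatin and between 8.65 and 8.95 with DMSO.

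In the transcription-coupled branch, ERCC6 and ERCC8 are the Cockayne syndrome proteins CSB and CSA, UVSSA brings TFIIH to the stalled polymerase, and USP7 is the deubiquitinase that UVSSA carries. XAB2 binds XPA and also acts in splicing, TCEA1 (TFIIS) restarts backtracked polymerase, and ELOF1 is an elongation factor on the polymerase that the branch requires. ELOF1 (ENSG00000130165; chromosome 19, 11551147 to 11559236, minus strand) had 38.1, 43.2 and 39.3 CPM with Pt-ttpy, 40.4, 35.5 and 40.8 CPM with cisplatin, and 53.2, 64.7 and 56.9 CPM with DMSO. All 6 treated libraries lay below all DMSO libraries. ELOF1 fell with Pt-ttpy by 0.54 on the log2 scale (SE 0.12, adjusted p = 0.0172) and with cisplatin by 0.58 (SE 0.12, adjusted p = 0.0069). With 7 libraries the log2 changes were −0.45 with Pt-ttpy and −0.43 with cisplatin, both called. The Pt-ttpy call was lost without any 1 of the 3 Pt-ttpy libraries (adjusted p = 0.0835, 0.0658 and 0.0747 without Pt-ttpy 1, 2 and 3), and the cisplatin call held in all 23 alternative fits. Between the drugs ELOF1 differed by a log2 of 0.05, with an interval from −0.21 to 0.30.

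The other 6 genes of the branch were not called with either drug. XAB2 came nearest with Pt-ttpy, at 50.6, 52.9 and 55.9 CPM in the Pt-ttpy libraries and 61.9, 86.2 and 61.6 CPM in the DMSO libraries. The groups did not overlap, and DMSO 2 was the highest. Its log2 change of −0.39 (adjusted p = 0.084) became −0.21 and was called without DMSO 2 and cisplatin 2 (adjusted p = 0.0167). With cisplatin XAB2 had 60.9, 71.7 and 60.9 CPM, within the range of the controls but for 2 libraries just below it. USP7 averaged 240 ± 12.0 CPM with Pt-ttpy, 214 ± 24.9 CPM with cisplatin and 266 ± 7.48 CPM with DMSO (SD, n = 3 each). Both drug groups lay below the DMSO group, and the cisplatin change of −0.31 just missed the threshold (adjusted p = 0.0501). ERCC6, ERCC8, UVSSA and TCEA1 had log2 changes of −0.15, 0.11, 0.10 and 0.25 with Pt-ttpy and of −0.05, 0.01, 0.14 and 0.09 with cisplatin, and all their intervals spanned 0. A processed pseudogene lies within ERCC8, and 14.7% of the 50-base words of TCEA1 transcripts recur in a pseudogene, so their counts may be incomplete.

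The plot of levels by library shows 8 genes, the 7 called in a comparison with DMSO and ERCC4.

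**Figure D3:**
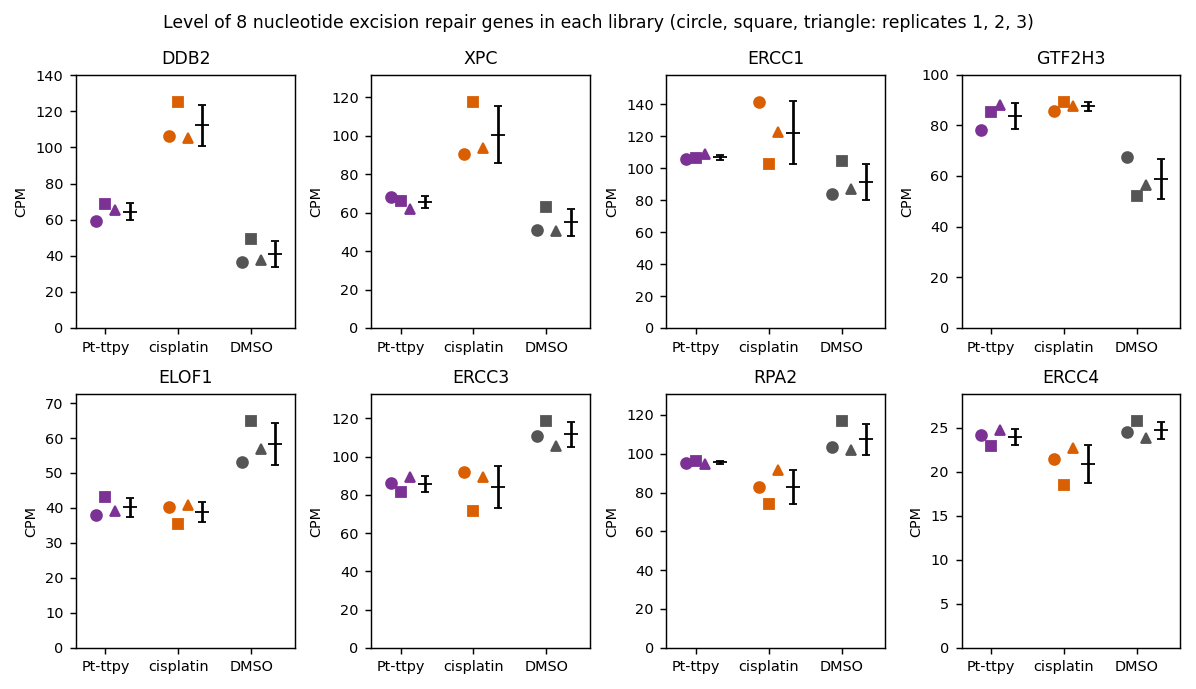
CPM of 8 genes in each library (points, with symbols for replicates 1 to 3) and the mean with SD (n = 3) to the right of each group; each y axis starts at 0. The 3 groups do not overlap for DDB2. GTF2H3 is higher and ELOF1, ERCC3 and RPA2 are lower in all 6 treated libraries than in any DMSO library. Cisplatin 2 overlaps the DMSO group for ERCC1.

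TFIIH, which unwinds DNA in repair and in transcription initiation, has the translocase ERCC3 (XPB), the helicase ERCC2 (XPD) and the core subunits GTF2H1 to GTF2H5. GTF2H3 (ENSG00000111358; chromosome 12, 123633739 to 123662606, plus strand), a structural core subunit, had 78.1, 85.2 and 87.8 CPM with Pt-ttpy, 85.8, 89.3 and 87.7 CPM with cisplatin, and 67.4, 52.1 and 56.4 CPM with DMSO. All treated libraries were above all controls. GTF2H3 rose with Pt-ttpy by 0.51 on the log2 scale (SE 0.11, adjusted p = 0.0179) and with cisplatin by 0.58 (SE 0.11, adjusted p = 0.00639). With 7 libraries the log2 changes were 0.44 with Pt-ttpy and 0.49 with cisplatin, both called. The Pt-ttpy call was lost without Pt-ttpy 1, 2 or 3 (adjusted p = 0.06, 0.0838 and 0.0781) or DMSO 3 (0.053), and the cisplatin call held in all 23 alternative fits.

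ERCC3 (ENSG00000163161; chromosome 2, 127257290 to 127294176, minus strand) went the other way. It had 86.4, 81.4 and 89.3 CPM with Pt-ttpy, 91.7, 71.7 and 89.1 CPM with cisplatin, and 111, 118 and 105 CPM with DMSO. All treated libraries were below all controls, and cisplatin 2 was the lowest. ERCC3 fell with Pt-ttpy by 0.38 (SE 0.11, adjusted p = 0.0481) and with cisplatin by 0.41 (SE 0.11, adjusted p = 0.0269). The Pt-ttpy call was lost in 14 of 23 alternative fits, among them those without any 1 of the Pt-ttpy or DMSO libraries (adjusted p up to 0.186). The cisplatin call was lost without cisplatin 2 (0.0654), without DMSO 1 (0.0537) and in the fit of the 6 libraries alone (0.0949). With 7 libraries the log2 changes were −0.33 with Pt-ttpy and −0.25 with cisplatin, and both were called.

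ERCC2 averaged 73.7 ± 0.613 CPM with Pt-ttpy, 77.1 ± 12.3 CPM with cisplatin and 71.0 ± 10.2 CPM with DMSO (SD, n = 3 each), with log2 changes of 0.05 with Pt-ttpy and 0.12 with cisplatin that were not called. The highest values of the cisplatin and DMSO groups were in cisplatin 2 and DMSO 2. GTF2H1, GTF2H2, GTF2H4 and GTF2H5 had log2 changes of −0.08, −0.01, −0.23 and 0.14 with Pt-ttpy and of −0.28, −0.18, −0.25 and −0.01 with cisplatin, none called. For GTF2H2 the counting is uncertain, because 65.1% of the 50-base words of its transcripts recur in other genes, most in its copy GTF2H2C. For GTF2H4 it is uncertain because VARS2 covers 79.0% of its exonic bases. Of the exonic bases of CCNH 22.3% are shared with RASA1 and an antisense gene of the opposite strand, and RASA1 was not called. The kinase arm of TFIIH (CDK7, its cyclin CCNH and the assembly factor MNAT1) had no called change. Their log2 changes were −0.20, 0.02 and 0.25 with Pt-ttpy and −0.31, −0.21 and 0.19 with cisplatin. In cisplatin 2 CDK7 and CCNH had 16.0 and 16.4 CPM, below all other libraries. Of the 10 genes of TFIIH and its kinase arm 1 was higher, 1 lower and 8 not called with each drug. Over all genes tested 12.0% were called with Pt-ttpy (5.59% higher and 6.45% lower). With cisplatin 20.5% of all genes were called (10.7% higher and 9.78% lower).

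XPA checks that the opened site holds damage and RPA coats the undamaged strand. XPA had 12.6, 14.1 and 12.5 CPM with Pt-ttpy, 14.5, 11.6 and 14.0 CPM with cisplatin, and 17.5, 12.6 and 13.3 CPM with DMSO. The groups overlapped, and the log2 changes of −0.15 with Pt-ttpy (adjusted p = 0.592) and −0.11 with cisplatin (0.658) were not called. RPA2 (ENSG00000117748; chromosome 1, 27891524 to 27914746, minus strand), the middle subunit of RPA, had 95.4, 96.5 and 94.8 CPM with Pt-ttpy, 82.7, 74.0 and 91.8 CPM with cisplatin, and 104, 117 and 102 CPM with DMSO. Both treated groups lay below the controls. RPA2 fell with cisplatin by 0.37 (SE 0.11, adjusted p = 0.0297), while its Pt-ttpy change of −0.17 was not called (0.319). The difference between the drugs, a log2 of 0.21 with an interval from −0.03 to 0.44, was not called either (0.675). The cisplatin call of RPA2 was lost in 9 of 23 alternative fits. These were upper-quartile factors (adjusted p = 0.0552), library totals (0.0551), the 6 libraries alone (0.111), and the fits without Pt-ttpy 1, 2 or 3 (0.0526, 0.0575 and 0.0537), cisplatin 1 (0.0706), cisplatin 2 (0.0769) or DMSO 3 (0.051). Without both DMSO 2 and cisplatin 2 the log2 change was −0.23 and called. RPA1 and RPA3 had log2 changes of −0.16 and 0.11 with Pt-ttpy and of −0.14 and −0.15 with cisplatin, none called.

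The incision is made by the nuclease ERCC4 (XPF) with its partner ERCC1 on one side and by ERCC5 (XPG) on the other. ERCC1 (ENSG00000012061; chromosome 19, 45407333 to 45478828, minus strand) had 106, 106 and 109 CPM with Pt-ttpy, 142, 103 and 123 CPM with cisplatin, and 83.6, 104 and 86.9 CPM with DMSO. Cisplatin 2 fell within the range of the controls, and DMSO 2 reached almost to the Pt-ttpy libraries. ERCC1 rose with cisplatin by 0.42 (SE 0.13, adjusted p = 0.0407), and its Pt-ttpy change of 0.22 was not called (0.272). Without DMSO 2 and cisplatin 2 the log2 changes were 0.64 with cisplatin and 0.33 with Pt-ttpy, and both were called (adjusted p = 1.85e-06 and 0.00051). In the main data the cisplatin call was lost in 8 of 23 alternative fits. These were the 6 libraries alone (0.106) and the fits without Pt-ttpy 1, 2 or 3 (0.0671, 0.0669 and 0.0677), cisplatin 1 (0.149), cisplatin 3 (0.0848), DMSO 1 (0.117) or DMSO 3 (0.12). A gene of the opposite strand (CD3EAP, also named POLR1G) covers 28.6% of the exonic bases of ERCC1. Its own log2 changes were −0.49 with Pt-ttpy and −0.33 with cisplatin, neither of them called.

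An antisense gene not analysed here (AC010401.1) covers 25.7% of the exonic bases of ERCC4, so counts on these bases could belong to either gene. ERCC4 had 24.2, 22.9 and 24.7 CPM with Pt-ttpy, 21.5, 18.5 and 22.7 CPM with cisplatin, and 24.5, 25.7 and 23.9 CPM with DMSO. The cisplatin libraries lay below the controls, but neither the change with Pt-ttpy (log2 −0.04) nor that with cisplatin (−0.24, adjusted p = 0.173) was called. ERCC1 counts per 100 ERCC4 counts were 437, 464 and 441 with Pt-ttpy, 660, 554 and 541 with cisplatin, and 341, 406 and 364 with DMSO. The 3 groups did not overlap in this ratio, while ERCC1 alone overlapped between cisplatin and DMSO. ERCC5 averaged 33.6 ± 2.36 CPM with Pt-ttpy, 35.6 ± 1.52 CPM with cisplatin and 32.8 ± 3.33 CPM with DMSO (SD, n = 3 each), without a called change. Its exonic bases are shared at 63.2% with the read-through gene BIVM-ERCC5, which held 11.5 CPM in Pt-ttpy 3, 1.74 CPM in DMSO 1 and at most 0.0499 CPM elsewhere. Summing both rows gave log2 changes of 0.17 with Pt-ttpy and 0.10 with cisplatin, not called.

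**Figure D4:**
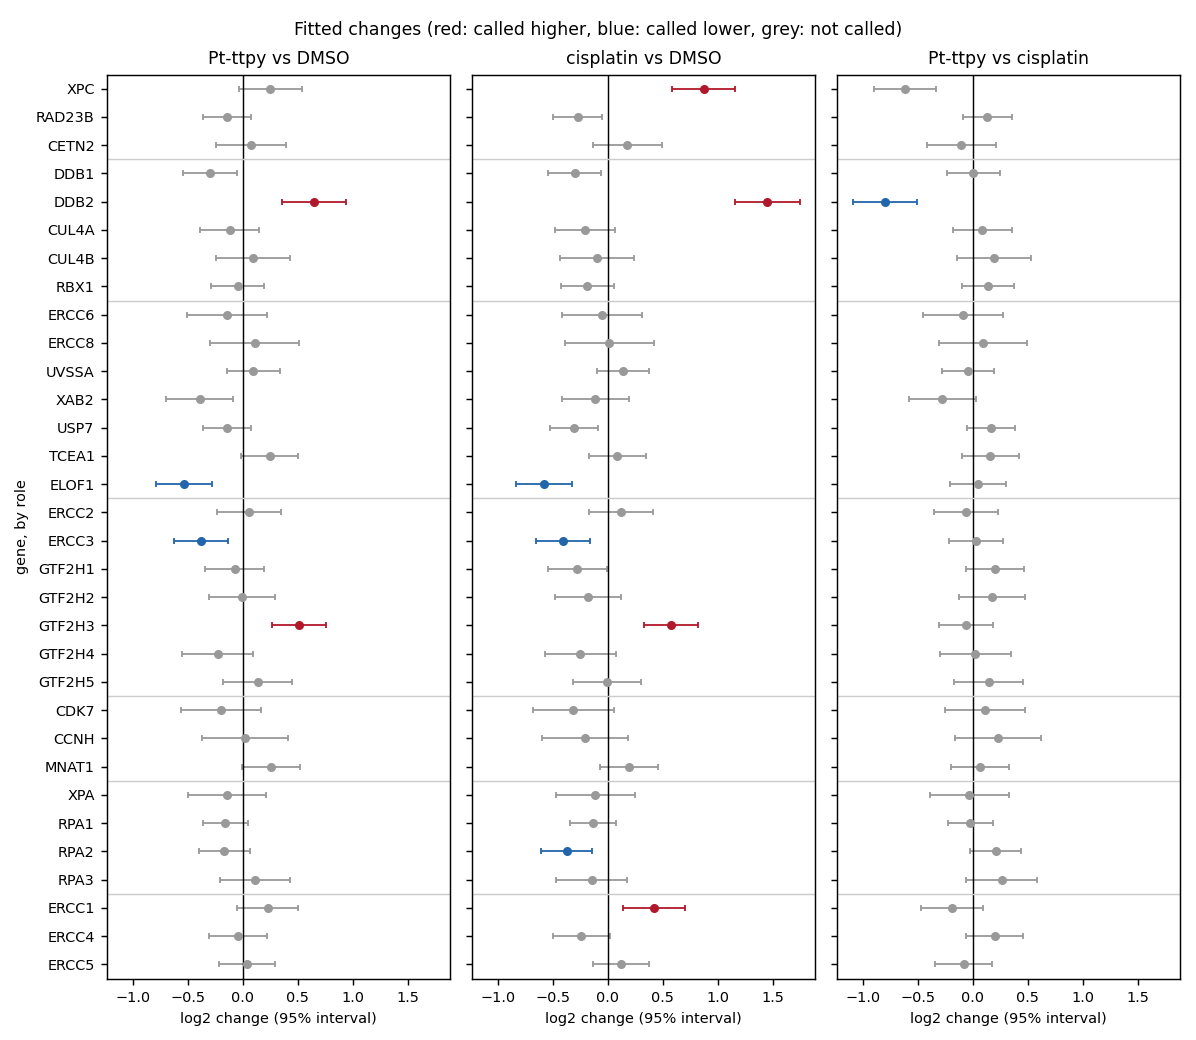
Fitted log2 change (points) with its 95% interval (bars) for each of the 32 genes, by role, in 3 comparisons; red is called higher, blue called lower and grey not called, and each x axis shows log2. Against DMSO, 4 genes are coloured for Pt-ttpy and 7 for cisplatin, and DDB2 is the only coloured gene between the drugs.

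The direct comparison of Pt-ttpy with cisplatin asks where the 2 platinum compounds differ at doses labelled as equally effective, 5.5 µM and 0.6 µM. DDB2 was lower with Pt-ttpy than with cisplatin by a log2 of −0.80 (95% interval −1.09 to −0.51, adjusted p = 0.0241). XPC was lower by −0.62 (interval −0.90 to −0.34), and its groups did not overlap, but it was not called (adjusted p = 0.0695). Without DMSO 2 and cisplatin 2 the differences were −0.71 for DDB2 and −0.49 for XPC, and both were called (adjusted p = 1.93e-06 and 6.49e-05), as was ERCC1 at −0.31 (0.00563). The DDB2 call was lost without Pt-ttpy 1, 2 or 3 (adjusted p = 0.165, 0.11 and 0.148), cisplatin 1 (0.0647) or cisplatin 2 (0.0598), while the difference stayed between −0.85 and −0.71. For GTF2H3 and ERCC3, both called against DMSO with each drug, the drugs differed by −0.07 (interval −0.31 to 0.18) and 0.03 (−0.22 to 0.27). Over the 32 genes 20 differences were above 0 and 12 below, with a median of 0.05, beside 0.0042 over all genes tested, and 2 had an unadjusted p under 0.05 (beside 8.06% of all genes). Groups did not overlap in 9 higher and 3 lower genes (37.5% of the 32, beside 20.6% of all genes, 10.5% higher and 10.1% lower), and only DDB2 among them was called.

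The fit without DMSO 2 and cisplatin 2 called more genes, in the pathway and outside it. With Pt-ttpy 13 of the 32 genes were called (40.6%, beside 33.2% of all genes tested in that fit, 15.8% higher and 17.4% lower). Higher were XPC, DDB2, ERCC2, GTF2H3 and ERCC1, and lower were RAD23B, DDB1, CUL4A, XAB2, USP7, ELOF1, ERCC3 and CDK7. With cisplatin 10 were called (31.2%, beside 30.2%, 13.9% higher and 16.4% lower), namely the 7 of the main fit and RAD23B, USP7 and GTF2H1, all 3 lower. Between the drugs 3 were called (9.38%, beside 5.20%, 2.37% higher and 2.83% lower), DDB2, XPC and ERCC1, all lower with Pt-ttpy. All calls of the fit to 9 libraries were kept (4 with Pt-ttpy, 7 with cisplatin and 1 between the drugs). The sign was the same in both fits for 28 of the 32 genes with Pt-ttpy, 30 with cisplatin and 26 between the drugs. In this fit each of the cisplatin and DMSO groups has 2 libraries.

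**Figure D5:**
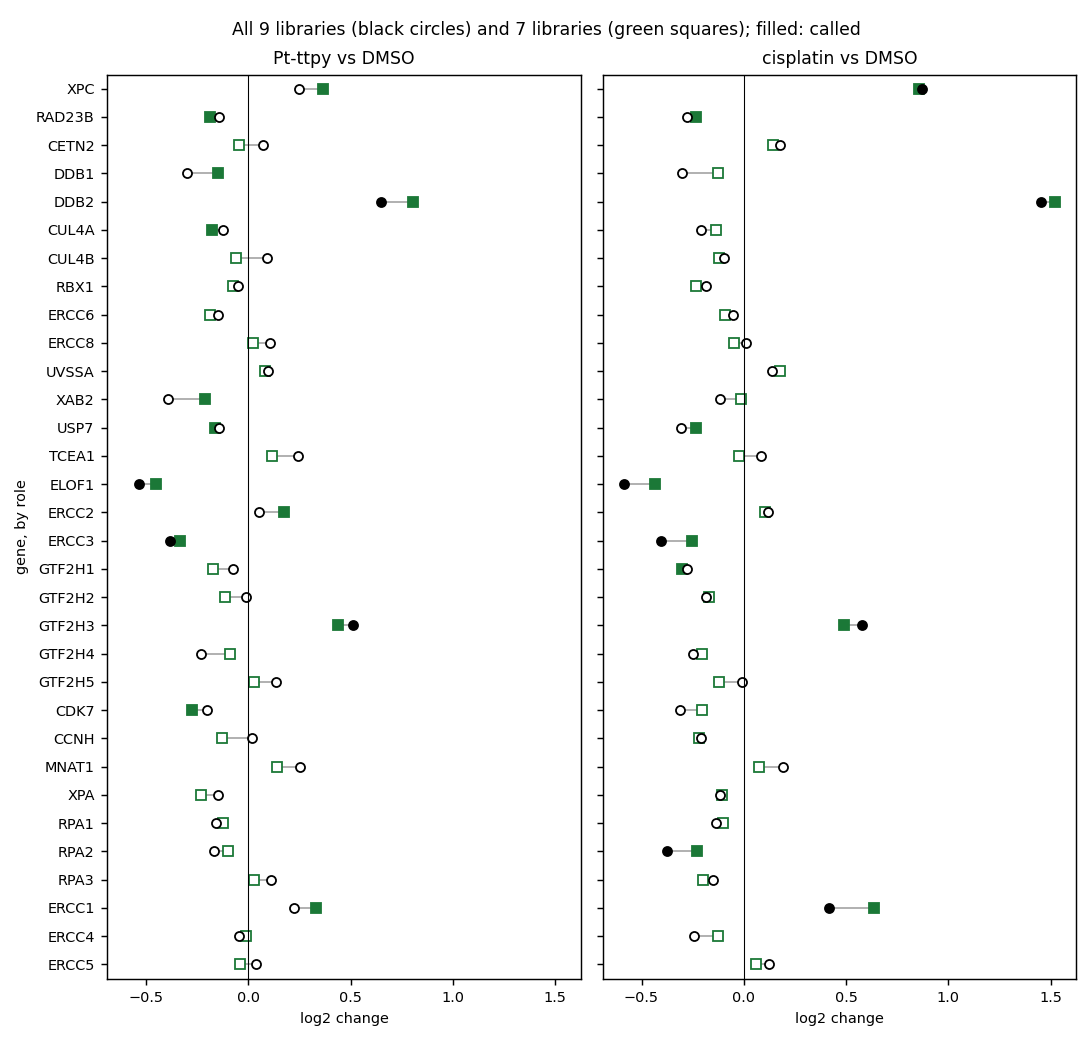
Log2 change of each of the 32 genes with all 9 libraries (black circles) and without DMSO 2 and cisplatin 2 (green squares), for Pt-ttpy (left) and cisplatin (right) against DMSO; filled symbols are called. Filled squares beside open circles, such as XPC and ERCC1 with Pt-ttpy, are genes called only in the 7-library fit, and DDB1 and XAB2 move toward 0 in it.

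Genes that act around the core of the pathway were read from 3 further lists, 45 genes in all, and all passed the filter. With Pt-ttpy 0 of the 45 were higher and 6 lower (13.3% called, beside 12.0% of all genes, 5.59% higher and 6.45% lower), with a median log2 change of −0.11, beside 0.03. With cisplatin 1 was higher and 10 lower (24.4% called, beside 20.5% of all genes, 10.7% higher and 9.78% lower), with a median of −0.25, beside 0.01. Between the drugs 0 were called, by edgeR and by DESeq2, and 3 had an unadjusted p under 0.05. Among the 18 genes of gap filling and ligation, POLE4, a small subunit of polymerase epsilon, had 10.2, 10.0 and 9.01 CPM with Pt-ttpy, 10.8, 11.5 and 9.84 CPM with cisplatin, and 18.0, 20.6 and 16.8 CPM with DMSO. All treated libraries lay below all controls. POLE4 fell by 0.92 with Pt-ttpy (adjusted p = 0.00599) and by 0.79 with cisplatin (0.00517), and both calls held whichever library was left out. POLE3, its partner subunit, fell by 0.70 with Pt-ttpy (adjusted p = 0.0207) and by 0.66 with cisplatin (0.0165), and with 7 libraries by 0.64 with Pt-ttpy and 0.40 with cisplatin. POLD4, a small subunit of polymerase delta, rose with cisplatin by 1.00 (adjusted p = 0.0141), with 13.9, 25.3 and 13.6 CPM in the cisplatin libraries and 8.38, 10.6 and 7.44 CPM in the DMSO libraries. Cisplatin 2 stood above the other libraries. Of the exonic bases of POLD4 21.3% are shared with AP003419.1 on the same strand, so counts there could belong to either gene. Without cisplatin 2 the log2 change was 0.64 (adjusted p = 0.0311), and without cisplatin 2 and DMSO 2 it was 0.80, both called. The sliding clamp PCNA and the ligases LIG1 and LIG3 were not called with either drug. With 7 libraries LIG1 was called higher (log2 0.15, adjusted p = 0.034) and LIG3 lower (−0.19, 0.0463) with Pt-ttpy. RFFL, on the opposite strand, covers 29.1% of the exonic bases of LIG3, so counts there could belong to either gene.

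Among 18 other factors of damage recognition and the transcription-coupled branch, the histone chaperone subunit SSRP1 fell by 0.41 with Pt-ttpy (adjusted p = 0.0216) and by 0.49 with cisplatin (0.00652). With cisplatin PARP1, a sensor of DNA breaks, fell by 0.40 (0.0122), its relative PARP2 by 0.42 (0.0308) and the splicing factor ISY1 by 0.32 (0.0476). With Pt-ttpy these 3 were not called, but with 7 libraries PARP1 (log2 −0.21, adjusted p = 0.00292) and ISY1 (−0.27, 0.0111) were called lower with Pt-ttpy as well, and PARP2 was not (−0.26, 0.0537). None of the 3 was called in the direct comparison of the drugs in either fit. Of the 9 subunits of the COP9 signalosome, which switches off cullin ligases, GPS1 and COPS7B fell with Pt-ttpy, by 0.51 (0.0318) and 0.46 (0.0199). With cisplatin GPS1, COPS7A and COPS7B fell, by 0.49 (0.0257), 0.42 (0.0245) and 0.36 (0.0303). ISY1 shares 22.2% of its exonic bases with ISY1-RAB43 and GPS1 13.6% with RFNG, so counts there could belong to either gene. All 17 calls among the 45 genes were kept in the fit to 7 libraries, though the fall of GPS1 shrank to 0.32 with Pt-ttpy and to 0.29 with cisplatin. Without any 1 of the Pt-ttpy libraries only POLE4 of the 6 genes called with Pt-ttpy kept its call. POLE3 lost its call with Pt-ttpy also without DMSO 2. With cisplatin POLE3, POLE4, SSRP1 and PARP1 kept theirs whichever library was left out. GPS1 lost its call without cisplatin 1 or 2, COPS7A without cisplatin 2 or 3, and PARP2 without Pt-ttpy 1, cisplatin 1, cisplatin 2 or DMSO 3. COPS7B kept its call without DMSO 1 or DMSO 2 and in no other of these fits. POLD4 lost its call without DMSO 3 (adjusted p = 0.0539), and ISY1 lost it in each of the 9 fits (up to 0.147). With library totals in place of TMM factors the median of all genes in the cisplatin comparison was 0.10, beside 0.01, and that of the 32 genes was −0.04, beside −0.13.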

How the data were processed

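Total RNA of A2780 cells was made into mRNA libraries, per the labels' protocols. What the authors deposited is a single table with the counts of each gene in 9 libraries, used here as counts. The genome build was GRCh38 according to the submitters' processing notes. Neither aligner nor counter is named there, and strand use is not given in the sources read here. Among 24542 rows 19974 carried Ensembl identifiers, all of them in GENCODE 29, and 4568 newGene loci (1.56% to 2.18% of a library's counts) were kept. The drug written "Cispt" was read as cisplatin.

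In edgeR 4.0.16 (R 4.3.3) low genes were removed by filterByExpr (minimum count 10), libraries were scaled by TMM, and a robust quasi-likelihood model with 1 mean per group was fitted over 9 libraries (prior count 0.125). P-values are Benjamini-Hochberg adjusted over 15558 genes, and calls use 0.05. Intervals of log2 changes are 95% t intervals of the fit.

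The 32 genes, the 3 further gene lists, the markers and the tests were chosen with earlier results of these data known. All 32 genes are named. Values per library are given for genes called in a comparison, for XPC, DDB2, ERCC1, ERCC4 and XPA, and for DDB1, XAB2, POLE4 and POLD4, which were picked after their values were seen. Of the further lists, genes called in a comparison are named except 1 that is counted but not reported here, and PCNA, LIG1 and LIG3 were added after their values were seen. Gene positions, exon overlaps and shared 50-base words come from GENCODE 29, and promoters from RefSeq.

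Alternatives were DESeq2 1.42.0 size factors and its Wald test, upper-quartile factors, library totals, no filter, at least 1 CPM in 3 libraries, limma-voom (limma 3.58.1), no robust estimation, the 6 libraries of a comparison, each library left out, 7 libraries (without DMSO 2 and cisplatin 2), the replicate block, a GC correction (lowess span 0.3, GC known for 86.0% of tested genes), both together, and no newGene loci. Summing ERCC5 with BIVM-ERCC5 was added after their counts were seen. The ratios of partner genes were not planned either. Bulk RNA does not tell fewer cells of a kind from less RNA per cell. No libraries were duplicates of each other. A planned comparison of protein sequences was not run.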

Additional observations from a re-analysis of the deposited data

Results flagged for a closer look

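DDB2 differed between the effects of the 2 drugs. Its log2 difference between Pt-ttpy and cisplatin was −0.80 (adjusted p = 0.0241, edgeR's quasi-likelihood test), with means of 64.4 ± 4.60 CPM with Pt-ttpy and 112 ± 11.4 CPM with cisplatin, and 41.1 ± 7.16 CPM with DMSO (SD, n = 3 each). All 3 Pt-ttpy libraries were below all 3 cisplatin libraries, as in 10.1% of all genes tested. The call was lost in 5 of the 9 fits with 1 library left out (adjusted p up to 0.165). DDB2 was flagged by this same test, so the flag adds nothing to it. The DMSO mean does not enter this log2 difference, but the DMSO libraries share in the filter, the scaling and the spread behind its adjusted p.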

How the results depend on the processing

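Over 24 settings, with 1 of them for ERCC5 alone, the 12 called changes of single genes held in 227 of 276 alternative values, and in 0 of the 2211 values of the 96 gene and comparison results was a called change turned round or a call made against the sign of the main value. Among changes that were not called, 100 values in 35 results had the opposite sign to the main value. In 4 of the 12 the call held throughout (DDB2, XPC, ELOF1 and GTF2H3 with cisplatin). Among the 32 genes, those called with Pt-ttpy against DMSO numbered 4 (beside 12.0% of all genes). They were 13 with 7 libraries (beside 33.2%), 7 with the GC correction (21.9% of the 32, beside 22.8% of all genes), 7 with the replicate block and GC correction (beside 23.8%), and 0 to 4 with 1 library left out, beside 1.16% to 19.1% of all genes (0 without any 1 Pt-ttpy library, 2 without DMSO 3). With cisplatin the number was 7 (beside 20.5%), and it was 4 in the fit of the 6 libraries alone (12.5%, beside 8.65%), 11 with the GC correction (34.4%, beside 32.4%) and 5 to 10 with 1 library left out, beside 12.8% to 19.5% of all genes. Between the drugs it was 1 (beside 0.514%), and 2 without a filter, by DESeq2, with the replicate block, with the GC correction and with both (beside 0.491% to 1.63%), 3 with 7 libraries (beside 5.20%), and 0 to 2 with 1 library left out, beside under 1% of all genes in each of those fits (0 without Pt-ttpy 1, 2 or 3, cisplatin 1 or cisplatin 2, and 2 without DMSO 2). Of the 45 other genes 6 were called with Pt-ttpy, and 22 with 7 libraries, 11 with the GC correction, 12 with block and GC correction, and 1 to 8 with 1 library left out (1 without each Pt-ttpy library). With cisplatin 11 were called, and 6 with upper-quartile factors (beside 18.3% of all genes), 7 with library totals (beside 18.9%), 4 with the 6 libraries alone, 20 with 7 libraries, 19 with block and GC correction (beside 33.1%), and 6 to 13 with 1 library left out (7 without cisplatin 1, 6 without cisplatin 2, 7 without DMSO 3). Between the drugs 0 were called, and 1 with 7 libraries. The shares of all genes in a setting, given above beside the 32 genes, stand beside the 45 genes as well. The cause of these moves was not tested. The fits without 1 library leave 2 in a group.

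Over all genes the calls with Pt-ttpy were 870 higher and 1004 lower, and 1050 and 666 with upper-quartile factors. With cisplatin they were 1669 and 1521, and 1940 and 913. With 7 libraries they were 2469 and 2720, and 2169 and 2559. Same-numbered libraries of 2 groups did not deviate together throughout (r −0.04 to 0.22), so the labels' numbers were not taken as pairs. The replicate block called 5 of the 32 genes with Pt-ttpy (15.6%, beside 16.3% of all genes), 8 with cisplatin (25.0%, beside 23.9%) and 2 between the drugs (6.25%, beside 0.9%). Genes such as ERCC6, with 311 counts in its lowest library, carry more counting error than the others.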
